A study of Homo sapiens with 12 samples.

Results

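The mRNAs of the translation initiation factors outside the eIF4 group were followed through the ribosome gradients of MCF10A cells with and without CBFB. Every protein-coding gene whose symbol begins with EIF1, EIF2, EIF3, EIF5 or EIF6 was taken, which gave 40 of the 56632 genes in the tables, and 40 further genes with such symbols were left out because they are pseudogenes or other non-coding genes. The rule itself uses symbols and gene types and no measured value, although the group was chosen with earlier results of these data known. Of the 40 genes, 39 passed the filter on low counts and were tested among 16275 genes, and EIF1AY did not pass.

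MCF10A is a line of human breast epithelial cells that form no tumours, and CBFB encodes the non-DNA-binding partner of the RUNX transcription factors. Wild-type (WT) cells and cells whose CBFB gene was disrupted with CRISPR-Cas9 (CBFB_KO) were treated with cycloheximide, which arrests ribosomes on the mRNA, and their lysates were spun through a sucrose gradient. RNA from the free fraction (no ribosome), the monoribosomal (mono) fraction and the pooled polyribosomal (poly) fraction was sequenced, with 2 libraries for each of the 6 groups and 12 in all. The labels name an mRNA library kit, whereas the study's methods speak of rRNA removal for RNA sequencing, so how these libraries were enriched for mRNA is not settled. The study's methods describe knockout lines grown from single cells, and the sources used here do not say which or how many such colonies gave these libraries, so the effect of the deletion and of the colony cannot be told apart. The labels do not say that the 2 libraries of a group came from separate cultures, so the p-values measure the spread between these libraries, which may be technical.

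The factors act in an ordered pathway. eIF1 and eIF1A hold the small ribosomal subunit in an open form that scans for a start codon, while eIF2 brings the initiator tRNA as a complex with GTP. eIF2B recharges eIF2 with GTP, and the 4 eIF2 kinases block that step by phosphorylating the alpha subunit of eIF2 when a cell lacks heme or amino acids, carries double-stranded RNA or has unfolded protein in its endoplasmic reticulum. eIF3, a scaffold of many subunits, keeps the parts together. eIF5 triggers GTP hydrolysis at the start codon, eIF5B joins the large ribosomal subunit, eIF6 keeps free large subunits from joining too early, and eIF5A helps ribosomes past difficult peptide bonds during elongation.

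Several mRNAs of this machinery belong to the class that starts with a C followed by a run of pyrimidines directly at the cap, a feature shared with ribosomal protein mRNAs and known to tie their translation to growth signalling. The start sites of 32 of the 40 genes were found in a RefSeq table (GRCh38.p14), and 8 of the 32 (25%) had an annotated start with C followed by 4 bases that are each C or T, read on the transcript's strand only. It was found in 4.07% of all 35116 starts listed there, and in 5.14% of the 27305 genes. The 8 starts are shown because these mRNAs are compared with the others below, from 10 bases before the annotated first base to 15 bases from it, with the pyrimidine run in capitals.
EIF2A, chr3:150546777-150546801, plus strand: cgagcggtttCTCTTTCCgggacaa
EIF2D, chr1:206612451-206612475, minus strand: ccagccgggcCCTTTTCgcggccgg
EIF2S3, chrX:24054946-24054970, plus strand: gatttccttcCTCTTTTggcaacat
EIF2S3B, chr12:10505880-10505904, plus strand: gactttcttcCTCTTTTggcaacat
EIF3D, chr22:36529152-36529176, minus strand: cgcatgtttcCTCTTTTCCTggttt
EIF3F, chr11:7987327-7987351, plus strand: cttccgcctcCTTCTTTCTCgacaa
EIF3K, chr19:38619178-38619202, plus strand: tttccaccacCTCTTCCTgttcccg
EIF3M, chr11:32583821-32583845, plus strand: gcccagttccCTTTTCCggtcggcg
The run was longest, 10 bases, in EIF3D and EIF3F. EIF2S3 and EIF2S3B, an X-linked gene and its copy on chromosome 12, carry the same run of 7 bases. EIF2S2, EIF3A, EIF3CL, EIF3G, EIF3L, EIF3E, EIF3H and EIF2AK1 had no entry.

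The libraries held between 41050325 and 63886726 estimated counts. The 2 CBFB_KO free libraries stood apart, because 71.6% and 87.2% of their counts came from the mitochondrial genome, against 1.26% to 20.8% in the other 10, so they kept only 13568143 and 5247878 counts for all other genes. The 2 CBFB_KO poly libraries differed from each other far less than any other pair (mean chi-square per gene 2.25, against 128.9 to 987 elsewhere), so that they may be one RNA sequenced as 2 libraries, which the labels do not settle. They entered as 2 libraries, and counts with the pair taken as 1 sample stand beside the calls that it changes. The summed level of 8 basal mammary markers was 4443 to 5691 TPM (transcript abundance corrected for length) in the poly libraries of both genotypes. It was 1708 to 2065 TPM in WT free, 364 to 614 in WT mono, 467 to 672 in CBFB_KO mono and 112 to 713 in CBFB_KO free. TPM totals include mitochondrial counts, so the sum in CBFB_KO free is not comparable with the others. Luminal, fibroblast and leukocyte lists of 3 genes each summed to at most 2.52, 1.89 and 6.37 TPM in any library, with PGR, LUM and PTPRC at 0 in all 12. CBFB mRNA was still measured in the knockout, at 3.59 and 4.01 CPM (counts scaled to library size with edgeR's TMM factors) in CBFB_KO poly against 5.72 and 6.84 in WT poly (edgeR adjusted p = 1), and since a CRISPR lesion may leave the mRNA in place, its level checks the labels little.

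Per length, EIF5A was the most abundant of these mRNAs in all 6 groups, at 1942 ± 415 TPM in WT poly and 1819 ± 52.3 TPM in CBFB_KO poly (mean ± SD, n = 2). EIF1 and EIF3K followed in both poly groups, with 856 ± 122 and 805 ± 24.7 TPM in WT, where their libraries overlapped, and 692 ± 5.21 and 766 ± 21.4 TPM in CBFB_KO, where they did not. EIF3L was the next after EIF5A in WT free, at 960 ± 397 TPM, and stood ninth in WT poly. At the low end EIF2AK3 had 0.41 ± 0.14 TPM in WT poly, and it was the lowest of the 39 genes in all 6 groups. The genes took 0.461% to 0.863% of all counts in the 6 WT and 4 CBFB_KO mono and poly libraries, 0.238% and 0.0913% in CBFB_KO free, and 0.836% and 0.714% there once mitochondrial genes were set aside.

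**Figure D1:**
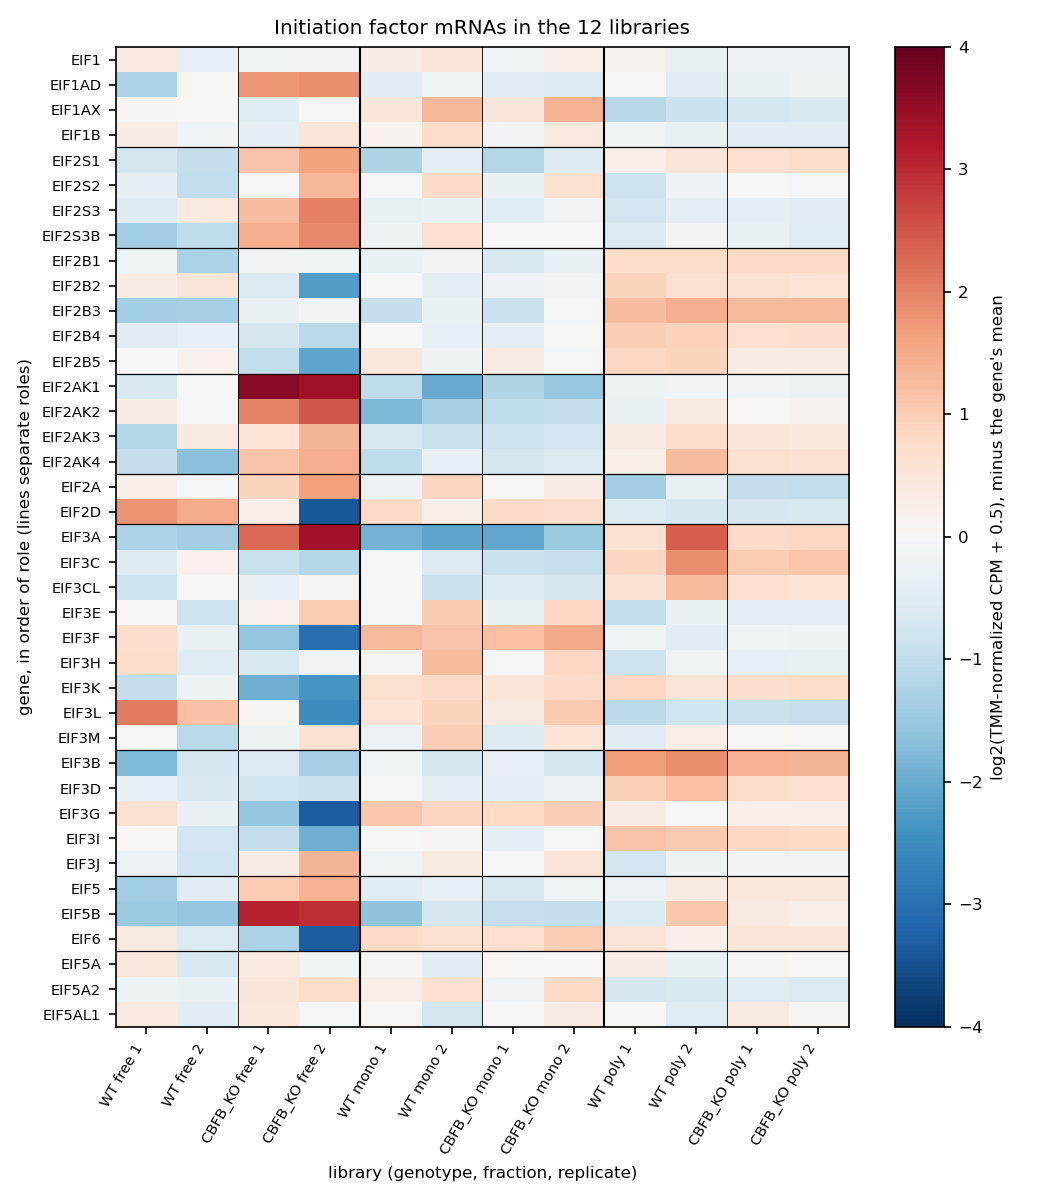
Level of 39 initiation factor mRNAs (rows, grouped by role) in the 12 libraries (columns), as log2 of TMM-normalized CPM plus 0.5 minus the mean of each gene. Red is above and blue below the gene's own mean; in the CBFB_KO free columns EIF2AK1, EIF3A and EIF5B are red and EIF2D, EIF3F, EIF3G and EIF6 blue.

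The differences between genotypes were found in the free fraction. There 13 of the 39 genes (33.3%) were higher in CBFB_KO and 8 (20.5%) lower at an edgeR adjusted p under 0.05, beside 24.2% and 18.1% of all 16275 genes. These counts were 7 and 0 without CBFB_KO replicate 2, 9 and 1 without WT replicate 1, 11 and 4 without WT replicate 2, and 6 and 0 when only the 4 free libraries were fitted. Both CBFB_KO free libraries lay above both WT free libraries in 17 of the 39 genes and below in 13, beside 37.4% and 31.5% of all genes. In the mono fraction 0 of the 39 passed, nor did any at an unadjusted p under 0.05 (0 in DESeq2), beside 0.0307% of all genes higher and 0.117% lower. In the poly fraction it was again 0 of 39 by edgeR at either threshold and 0 by DESeq2, beside 0.0246% and 0.166% of all genes. Both CBFB_KO libraries lay above both of WT in 1 gene in mono and 8 in poly, beside 17.0% and 24.7% of all genes, and below in 4 and 7, beside 12.9% and 25.0%. The estimates for the 39 genes ranged from -0.58 to 0.79 (log2) in mono and from -0.99 to 0.49 in poly, with a median standard error of 0.45 in each, against -2.42 to 4.89 in free. Changes of the size of that error were not detectable with 2 libraries a group. In bulk fractions, fewer cells of a kind and less RNA per cell cannot be told apart.

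**Figure D2:**
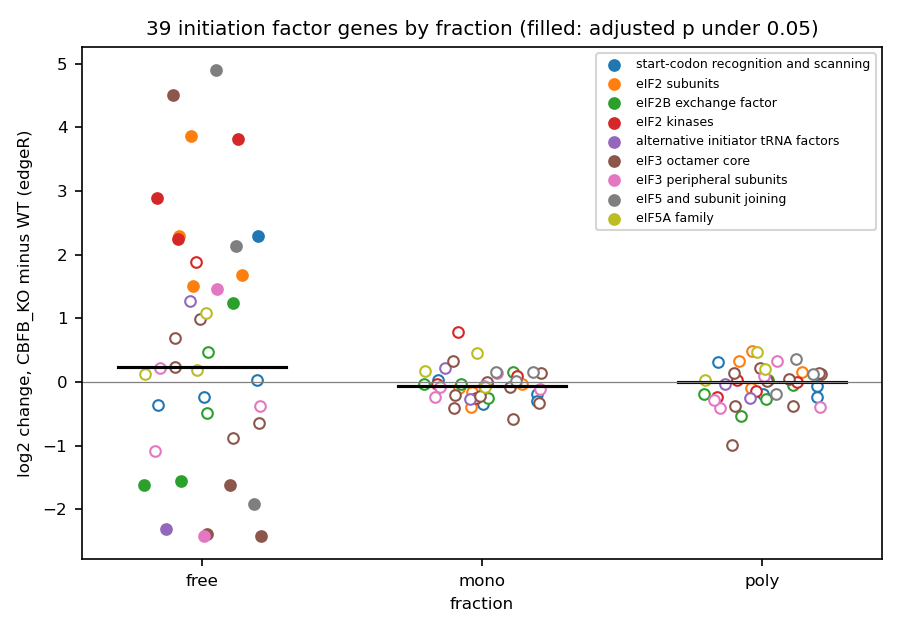
Log2 change of CBFB_KO against WT (vertical axis, edgeR) for each of the 39 genes (points, coloured by role) in the free, mono and poly fractions, with the median as a black line. The 21 filled points, with an adjusted p under 0.05, all stand in the free fraction, and the mono and poly points lie between -0.99 and 0.79.

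The change of the poly to free ratio between genotypes, the quantity the study used to follow loading onto polyribosomes, was tested as an interaction. The ratio was lower in CBFB_KO for 8 of 39 genes (20.5%) and higher for 2 (5.13%), beside 14.3% and 4.10% of all genes, and the median was -0.55 over the 39 and -0.10 over all genes. The lower ones were EIF3A, EIF5B, EIF2S3B, EIF2AK1, EIF2AK4, EIF1AD, EIF2AK2 and EIF2S1, and the higher ones were EIF3F and EIF3G. With the CBFB_KO poly pair taken as 1 sample, 3 genes stayed lower, EIF3A, EIF5B and EIF2AK1, and 0 higher, and the other 7 (EIF2S3B, EIF2AK4, EIF1AD, EIF2AK2, EIF2S1, EIF3F and EIF3G) missed the threshold. Without CBFB_KO replicate 2 the counts were 1 lower and 0 higher, and without CBFB_KO replicate 1 they were 4 and 6. Without the scaling factors the median of all genes moved to 1.54, the calls for all genes turned from 668 higher and 2332 lower to 3003 higher and 646 lower, and those for the 39 genes became 7 higher and 2 lower (EIF3A and EIF5B). In the free fraction the same step moved the median of all genes from 0.04 to -1.57 and gave 4 of the 39 genes higher and 18 lower. Every change below is therefore relative to the typical gene, and EIF2S2, EIF2S3, EIF2B3 and EIF3J turned from above to below 0 in free without the factors. No gene of the 39 changed its poly to mono ratio, by edgeR or DESeq2 (0 at an unadjusted p under 0.05), as was so for 0% of all genes.

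**Figure D3:**
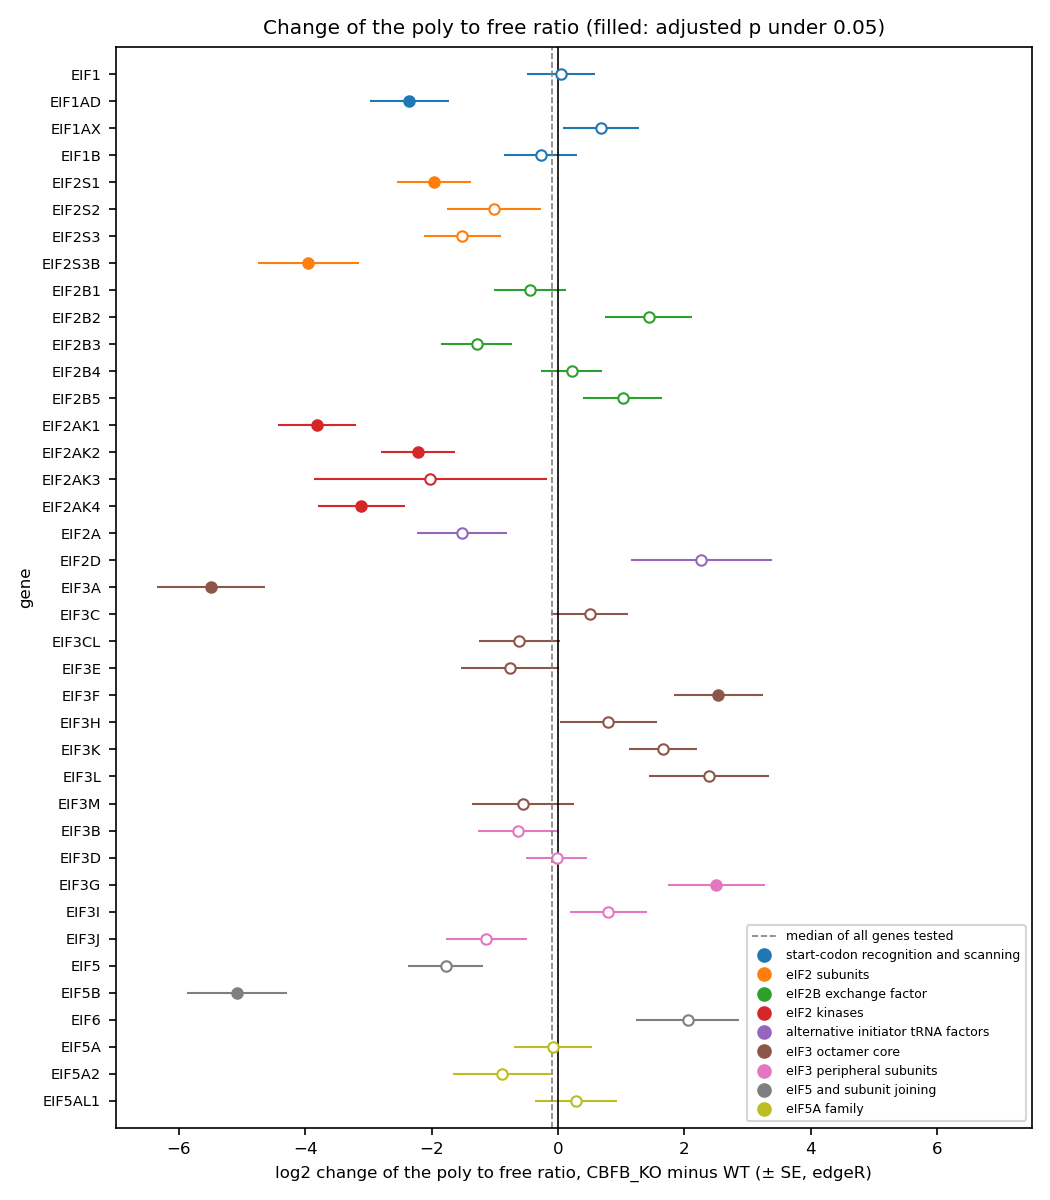
Log2 change of the poly to free ratio, CBFB_KO minus WT, with its standard error (horizontal axis) for 39 genes ordered by role; the dashed line marks the median of all genes tested, -0.10. Filled points have an adjusted p under 0.05: 8 lie between -5.49 and -1.97 and 2 at 2.51 and 2.54.

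Among the start-codon factors, EIF1AD differed between genotypes and EIF1, EIF1B and EIF1AX did not pass. EIF1 discriminates against wrong start codons and was the most counted gene of the group. It had 604 and 369 CPM in the WT free libraries and 406 and 421 in CBFB_KO free. In mono it had 573 and 657 CPM in WT and 412 and 553 in CBFB_KO, and in poly 515 and 374 in WT and 390.2 and 389 in CBFB_KO. The genotypes overlapped in the free and poly fractions, and the log2 change of the ratio was 0.04 ± 0.53 (SE). EIF1AD, named for a domain it shares with eIF1A and not itself an established initiation factor, had 8.76 and 22.5 CPM in WT free and 74.2 and 79.3 in CBFB_KO free. Its levels in WT and CBFB_KO were 15.6 and 18.8 against 15.8 and 14.4 CPM in mono, and 21.7 and 15.9 against 17.8 and 18.3 in poly. Only its CBFB_KO free libraries lay apart from all others. The ratio change was -2.35 ± 0.63 (edgeR adjusted p = 0.026), and it missed the threshold at -1.59 without WT replicate 1, -2.38 without CBFB_KO replicate 1, -2.33 without CBFB_KO replicate 2, -0.60 without scaling factors, -2.35 with the CBFB_KO poly pair as 1 sample and -2.35 from only the compared libraries.

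All 4 genes for subunits of eIF2 were higher in the free fraction of CBFB_KO (median log2 change 1.99), where 24.2% of all genes were, and 2 of them, EIF2S1 and EIF2S3B, had a lower poly to free ratio, as had 14.3% of all genes. EIF2S1 encodes the alpha subunit, the target of the eIF2 kinases. It had 8.02 and 6.82 CPM in WT free and 30.2 and 42.7 in CBFB_KO free. In mono the values were 5.59 and 10.4 in WT and 5.68 and 9.43 in CBFB_KO, and in poly 16.4 and 19.4 in WT and 22.1 and 23.0 in CBFB_KO. Both CBFB_KO free values exceeded every other value of the gene, and its CBFB_KO poly values also lay above those of WT poly. The free change was 4.91-fold (log2 2.30 ± 0.43, edgeR adjusted p = 0.00274), and that of the ratio -1.97 ± 0.59 (edgeR adjusted p = 0.0394). The latter missed the threshold in 7 of 14 alternatives. It missed when any 1 replicate was left out (-2.17 and -1.74 without CBFB_KO replicate 1 or 2, -2.21 and -1.62 without WT replicate 1 or 2). It also missed with the CBFB_KO poly pair as 1 sample (-1.96), and it was -0.20 without scaling factors.

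EIF2S3, the gamma subunit that binds GTP and the initiator tRNA, was the most counted of the 4. It had 58.7 and 111 CPM in WT free and 198 and 345 in CBFB_KO free. In mono it had 68.2 and 70.8 in WT and 60.5 and 75.9 in CBFB_KO, and in poly 49.9 and 64.2 in WT and 64.1 and 63.4 in CBFB_KO. The free groups did not overlap (log2 1.68 ± 0.44, edgeR adjusted p = 0.0129), whereas the ratio change of -1.52 ± 0.61 missed the threshold (edgeR adjusted p = 0.0954) and became 0.33 without scaling factors. Its copy EIF2S3B was rare, at 0.328 and 0.566 CPM in WT free and 5.39 and 7.69 in CBFB_KO free. It had 1.39 and 2.93 in WT mono, 1.63 and 1.65 in CBFB_KO mono, 0.948 and 1.5 in WT poly and 1.27 and 1.03 in CBFB_KO poly. The WT free libraries were the lowest and the CBFB_KO free libraries the highest, with a ratio change of -3.95 ± 0.80 (edgeR adjusted p = 0.00752) that missed without CBFB_KO replicate 2 (-3.54), without scaling factors (-2.17) or with the CBFB_KO poly pair as 1 sample (-3.95). Because 26.8% of the 50-base stretches of EIF2S3B occur in EIF2S3, its counts are uncertain and the pair is not independent. EIF2S2, the beta subunit, was 2.85-fold higher in CBFB_KO free (edgeR adjusted p = 0.0409), with 21.3% of its stretches in a pseudogene. Without CBFB_KO replicate 2 the free rise stayed past the threshold for EIF2S1 (2.04) and EIF2S3B (3.596), and without scaling factors for EIF2S3B alone (2.07).

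The 5 subunits of eIF2B gave calls in both directions in the free fraction, and 0 passed for the poly to free ratio by edgeR (1 at an unadjusted p under 0.05). EIF2B5 and EIF2B2 were lower in CBFB_KO free and EIF2B3 was higher (2.36-fold, edgeR adjusted p = 0.031), beside 18.1% and 24.2% of all genes. EIF2B5, the catalytic subunit and the most counted of the group, had 36.2 and 40.4 CPM in WT free and 17.9 and 7.89 in CBFB_KO free. It had 49.5 and 31.0 in WT mono, 45.5 and 33.5 in CBFB_KO mono, 63.9 and 67.0 in WT poly and 45.4 and 44.8 in CBFB_KO poly. CBFB_KO was below WT in free and in poly, with log2 changes of -1.56 ± 0.45 (edgeR adjusted p = 0.0192) and -0.54 ± 0.44 (edgeR adjusted p = 1). EIF2B2 was 3.07-fold lower in free (edgeR adjusted p = 0.0245). Neither fall passed without CBFB_KO replicate 2, whose free library had the fewest non-mitochondrial counts (-1.08 and -0.9988), without WT replicate 1 (-1.64 and -1.70) or without WT replicate 2 (-1.56 and -1.61). The rise of EIF2B3 missed when any 1 replicate was left out (1.16 to 1.32). Within WT, all 5 subunits had estimates above 0 for poly against free, and 3 passed (EIF2B3, EIF2B1 and EIF2B4), beside 14.0% of all genes higher in poly. Calls of that kind among the 39 genes became fewer without either WT replicate, as given below.

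Of the 4 eIF2 kinases, 3 were higher in the free fraction of CBFB_KO and had a lower poly to free ratio, beside 24.2% and 14.3% of all genes, and EIF2AK3 did not pass in either. Without scaling factors the free rise passed for EIF2AK1 (2.15) and was 1.17 for EIF2AK4 and 0.48 for EIF2AK2. With each library's trend of counts with mean transcript length removed (the length offset), the free change of EIF2AK2 turned to -0.54. EIF2AK1, the heme-regulated kinase, was the most counted kinase and passed for the ratio with or without any 1 replicate. It had 29.9 and 46.1 CPM in WT free and 581 and 487 in CBFB_KO free. In mono it had 22.4 and 10.9 in WT and 19.8 and 15.7 in CBFB_KO, and in poly 40.3 and 41.7 in WT and 42.4 and 39.5 in CBFB_KO. The WT poly values lay between the 2 CBFB_KO poly values, while the free level was 14.1-fold higher in CBFB_KO (edgeR adjusted p = 0.00025). The ratio change was -3.81 ± 0.62 (edgeR adjusted p = 0.0024), and it was the only one of the 10 calls that also passed without CBFB_KO replicate 2 (-3.90), though it missed without scaling factors (-2.15, edgeR adjusted p = 0.0838).

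EIF2AK4 (GCN2), which responds to uncharged tRNA, had 2.24 and 1.16 CPM in WT free and 11.2 and 14.0 in CBFB_KO free. It had 2.09 and 3.68 in WT mono, 2.64 and 3.005 in CBFB_KO mono, 5.75 and 11.9 in WT poly and 7.68 and 7.37 in CBFB_KO poly. WT poly lay above WT free and CBFB_KO poly below CBFB_KO free, and the ratio change was -3.12 ± 0.69 (edgeR adjusted p = 0.0117). EIF2AK2 (PKR), the kinase activated by double-stranded RNA, had 4.88 and 3.75 CPM in WT free and 17.0 and 23.9 in CBFB_KO free. Its mono levels were 0.772 and 1.25 in WT and 1.69 and 1.79 in CBFB_KO, and its poly levels 3.19 and 5.15 in WT and 4.14 and 4.34 in CBFB_KO. The change of the ratio was -2.21 ± 0.58 (edgeR adjusted p = 0.024), but it turned to 0.69 (edgeR adjusted p = 0.35) with the length offset. EIF2AK4 and EIF2AK2 missed the threshold when either CBFB_KO replicate was left out, at -2.93 and -2.00 without replicate 2 and -3.30 and -2.41 without replicate 1, EIF2AK2 also without WT replicate 2 (-1.54), and both without scaling factors (-1.42 and -0.47) or with the CBFB_KO poly pair as 1 sample (-3.12 and -2.21). EIF2AK3 (PERK), the kinase of the endoplasmic reticulum, did not exceed 2.33 CPM in any library and had a ratio change of -2.02 ± 1.85.

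**Figure D4:**
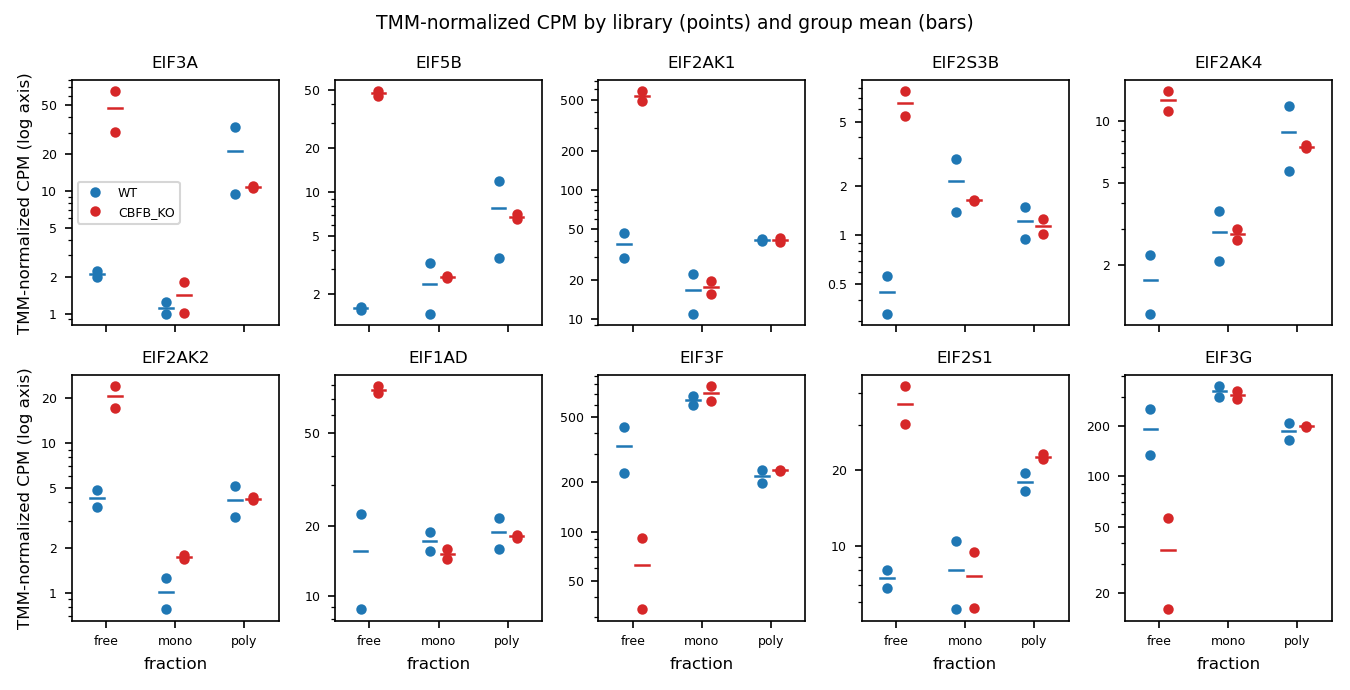
TMM-normalized CPM (log axis) of the 10 genes with a changed poly to free ratio in the free, mono and poly fractions, WT in blue and CBFB_KO in red; points are the 2 libraries and bars their mean. In the free fraction the genotypes do not overlap for any of the 10, with EIF3F and EIF3G lower and the other 8 higher in CBFB_KO. Of all genes, 31.5% lie lower and 37.4% higher there without overlap. The 10 were chosen by a ratio that uses these same free libraries. In poly none of the 10 passed the test.

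Of the pair of factors that can deliver initiator tRNA without eIF2, EIF2D was lower in CBFB_KO free, as were 18.1% of all genes. EIF2A did not pass. EIF2D, which also recycles ribosomes, had 413 and 330.4 CPM in WT free and 139.6 and 10.7 in CBFB_KO free. It had 203 and 139 in WT mono, 203 and 194 in CBFB_KO mono, 79.5 and 73.2 in WT poly and 73.9 and 75.1 in CBFB_KO poly. The WT free libraries were the highest of all 12, and the 2 CBFB_KO free libraries lay far apart from each other. The free change was -2.30 ± 0.81 (edgeR adjusted p = 0.041) and -1.40 without CBFB_KO replicate 2 (edgeR adjusted p = 0.106), and it also missed without WT replicate 1 (-2.13) or 2 (-2.55). EIF2A missed in free, at 1.28 ± 0.51 (edgeR adjusted p = 0.0625).

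The 14 genes of eIF3 went in both directions. In the free fraction EIF3A and EIF3J (14.3%) were higher in CBFB_KO, EIF3F, EIF3G, EIF3K and EIF3L (28.6%) lower, and 8 did not pass. Of all genes, 24.2% were higher and 18.1% lower there. EIF3A, the largest subunit of the core, had the lowest ratio change of the 39 genes. It had 2.23 and 1.98 CPM in WT free and 30.6 and 65.2 in CBFB_KO free. In mono it had 1.25 and 0.991 in WT and 1.02 and 1.82 in CBFB_KO, and in poly 9.41 and 33.2 in WT and 10.6 and 10.9 in CBFB_KO. WT poly exceeded WT free in both libraries, CBFB_KO poly lay below CBFB_KO free in both, and the WT poly libraries themselves differed by more than the 2 CBFB_KO poly values. The free level was 22.7-fold higher in CBFB_KO (edgeR adjusted p = 0.000617) and the ratio 45.0-fold lower (log2 -5.49 ± 0.85, edgeR adjusted p = 0.00187). Without CBFB_KO replicate 2 the ratio change was -4.88 (edgeR adjusted p = 0.0519), and without WT replicate 2 it was -4.13 and kept its call.

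EIF3F, a core subunit, moved the other way. It had 440.0 and 228 CPM in WT free and 91.8 and 33.4 in CBFB_KO free. It had 673 and 599 in WT mono, 629 and 775 in CBFB_KO mono, 239 and 197 in WT poly and 239.7 and 235 in CBFB_KO poly. In CPM, mono was its highest fraction in both genotypes, and only in free did CBFB_KO lie below WT. In TPM, poly exceeded mono in replicate 2 of WT (300.5 against 267.1) and of CBFB_KO (305.2 against 301.2), but not in replicate 1. EIF3G, a peripheral subunit that binds RNA, had 252 and 134 CPM in WT free and 56.3 and 15.98 in CBFB_KO free. It had 347 and 299.8 in WT mono, 290.2 and 327 in CBFB_KO mono, 209 and 165 in WT poly and 199.5 and 199 in CBFB_KO poly. The ratio changes of EIF3F and EIF3G were 2.54 ± 0.70 and 2.51 ± 0.76 (edgeR adjusted p = 0.0301 and 0.0423). Both missed the threshold when CBFB_KO replicate 2 (1.99 and 1.86), WT replicate 1 (2.12 and 2.16) or WT replicate 2 (2.92 and 2.85) was left out, with the CBFB_KO poly pair as 1 sample (2.53 and 2.50) and from only the compared libraries (2.55 and 2.52). The call of EIF3G also ended with the length offset (1.71).

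EIF3L was the most counted core subunit and, in WT, had its highest CPM in the free fraction. It had 1505 and 806 CPM in WT free and 383 and 60.5 in CBFB_KO free. It had 518 and 666 in WT mono, 458 and 730.2 in CBFB_KO mono, 173 and 202 in WT poly and 191 and 188 in CBFB_KO poly. It was the 1 gene of the 39 called lower in WT poly than in WT free (-2.62 ± 0.70, edgeR adjusted p = 0.0227), but 0 were called without WT replicate 1, without WT replicate 2 or without scaling factors, and 3 were by DESeq2 or with the length offset. Its free level in CBFB_KO was 5.21-fold lower (edgeR adjusted p = 0.0203), while the ratio change of 2.39 ± 0.95 missed (edgeR adjusted p = 0.0931). Since 34.2% of its 50-base stretches also lie in another annotated gene, its counts are uncertain. EIF3K was 3.06-fold lower in CBFB_KO free, with 95.2 and 163 CPM in WT and 48.2 and 36.2 in CBFB_KO. The 4 falls were not called without CBFB_KO replicate 2, where they were -1.85 for EIF3F, -1.77 for EIF3G, -1.41 for EIF3K and -1.58 for EIF3L, nor when only the free libraries were fitted. Those of EIF3F (-1.86), EIF3G (-1.89) and EIF3L (-1.86) also missed without WT replicate 1, and that of EIF3K without WT replicate 2 (-1.25). EIF3C and EIF3CL share 97.2% of the stretches of EIF3CL, so their counts cannot be split with confidence, and neither passed in free.

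Of the factors of the last steps, EIF5 and EIF5B were higher and EIF6 lower in CBFB_KO free, beside 24.2% and 18.1% of all genes. EIF5B, the GTPase of subunit joining, had 1.64 and 1.56 CPM in WT free and 49.3 and 45.9 in CBFB_KO free. In mono it had 1.46 and 3.25 in WT and 2.66 and 2.59 in CBFB_KO, and in poly 3.56 and 11.99 in WT and 7.07 and 6.54 in CBFB_KO. Its free libraries were tight within each genotype and lay 29.8-fold apart (edgeR adjusted p = 0.000292), the largest free change of the 39. The ratio change was -5.09 ± 0.79 (edgeR adjusted p = 0.00194) and -5.10 without CBFB_KO replicate 2 (edgeR adjusted p = 0.06). EIF6 had 271 and 141 CPM in WT free and 87.5 and 20.7 in CBFB_KO free. It had 361 and 332 in WT mono, 339.9 and 430.3 in CBFB_KO mono, 299.6 and 242 in WT poly and 298 and 293 in CBFB_KO poly. The fall in free was 3.79-fold (edgeR adjusted p = 0.0246), it missed without CBFB_KO replicate 2 (-1.22) or WT replicate 1 (-1.37), and 13.3% of its stretches lie in another annotated gene. EIF5, the GTPase-activating protein of eIF2, was 4.40-fold higher in CBFB_KO free (edgeR adjusted p = 0.00406), with a ratio change of -1.78 ± 0.59 (edgeR adjusted p = 0.0571). Of the 21 calls in free, those of EIF2AK1, EIF3A, EIF5B and EIF2S3B passed under every alternative tried.

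The eIF5A family gave 0 calls of 3 between genotypes in any fraction (edgeR, 0 at an unadjusted p under 0.05). EIF5A had 2053 and 978 CPM in WT free and 1972 and 1326 in CBFB_KO free. In mono it had 1636 and 1109 in WT and 1589 and 1490.0 in CBFB_KO, and in poly 1890.0 and 1219 in WT and 1631 and 1562 in CBFB_KO. The genotypes overlapped in all 3 fractions, and the ratio change was -0.08 ± 0.62, which was 1.503 without scaling factors. EIF5A2 and EIF5AL1 did not exceed 8.37 CPM in any library.

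Within WT, 12 of the 39 mRNAs (30.8%) were higher in poly than in free and 1 (2.56%) lower, beside 14.0% and 7.99% of all genes. The 12 fell to 5 without WT replicate 1, 3 without WT replicate 2, 4 from only the compared libraries and 6 with the CBFB_KO poly pair as 1 sample. The 12 were EIF3A, EIF3B, EIF3C, EIF3D, EIF3I, EIF3K, EIF2B1, EIF2B3, EIF2B4, EIF2AK4, EIF2S1 and EIF5B. Against mono, 9 (23.1%) were higher in WT poly and 2 (5.13%) lower, beside 11.0% and 9.68% of all genes. The highest was EIF3A (4.24 ± 0.65, edgeR adjusted p = 0.0036) and the lower ones were EIF1AX (-1.97 ± 0.44, edgeR adjusted p = 0.0109), which encodes eIF1A, and EIF3F (-1.54 ± 0.50, edgeR adjusted p = 0.0486). With WT replicate 1 left out 2 of the 39 were called in either direction against mono, and 0 with WT replicate 2 left out. In CBFB_KO, 5 of the 39 were higher in poly than in mono and 1, again EIF1AX, lower (-1.69 ± 0.44, edgeR adjusted p = 0.0242), beside 8.20% and 8.66% of all genes. None of these 6 calls, EIF1AX included, was left when either CBFB_KO replicate was dropped or with the CBFB_KO poly pair as 1 sample, where 0 of 39 were called, whereas DESeq2 called 15. Against free, 12 of the 39 were higher in CBFB_KO poly and 8 lower, beside 14.6% and 16.7%, and these 20 calls became 2 without CBFB_KO replicate 2 and 9 with the pair as 1 sample.

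The position of the 8 mRNAs with the pyrimidine starts shown above is given as a description, without a test between them and the others. In WT poly against mono, 1 of the 8 was called lower, EIF3F, 1 higher, EIF3D (1.28 ± 0.35, edgeR adjusted p = 0.0245), and 6 did not pass, and neither call held without WT replicate 2. The estimated log2 difference of poly minus mono was below 0 for the 7 other than EIF3D (median of the 8 -0.70), and below 0 for 6 of the 23 tested genes with a start in the table that lacks the feature (median 0.95). In CBFB_KO it was below 0 for 6 of 8 (median -0.31) and for 6 of 23 (median 0.85). Among all genes tested, the medians in WT were -0.25 for 802 genes with the feature and 0.11 for 10514 without it. EIF3E, EIF3H and EIF3L, which had no entry, stood at -1.18, -1.25 and -1.66 in WT. In free, the genotype change of the 8 ran from -2.41 to 3.86, with 4 above and 4 below 0.

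The deposited FPKM values were examined with the study's kind of cut-off, a poly to free ratio in CBFB_KO less than 0.5 times that in WT. The study does not name the unit in which it took this ratio. Of the 40 genes, 33 had a mean FPKM (fragments scaled for transcript length and library total) of at least 1 in the free and poly groups of both genotypes. The ratio was below 0.5 times in 2 of the 33 (6.06%), EIF3A with a log2 change of -2.28 and EIF2AK1 with -1.89, beside 8.10% of 7126 genes. Against WT replicate 1 alone, EIF3A fell short of the cut-off, at -0.64 and -0.29 with CBFB_KO replicates 1 and 2. Against WT replicate 2 alone it had -3.78 and -3.43. EIF2AK1 fell short for replicate 2 of both genotypes (-0.53) and met the cut-off in the other pairs (-3.025 to -1.51). EIF5B and EIF2S3B had -2.90 and -2.20 but did not reach the minimum. The ratio was more than 2 times higher in 21 of the 33, beside 70.1% of all genes. FPKM is scaled to the whole library, mitochondrial counts included. The median log2 change was 1.36 for the 33 genes and 2.14 for all. Divided by the median change of all genes, 12 of the 33 lay below 0.5 times, beside 31.9% of all genes. By TMM-normalized CPM it was 11 of the 33 (33.3%), beside 27.4% of 7124 genes, so the share depends on the unit.

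A list of 18 other genes holds partners and regulators of these factors. In free, 9 of the 18 were higher in CBFB_KO and 3 lower, beside 24.2% and 18.1% of all genes. The poly to free ratio was lower for 5 and higher for 0, beside 14.3% and 4.10% (8 at an unadjusted p under 0.05 in either direction), with 0 called in mono or poly by edgeR. ABCE1, which splits ribosomes after termination, had 2.93 and 1.45 CPM in WT free and 89.6 and 107 in CBFB_KO free. Its levels in poly were 3.495 and 9.72 in WT and 5.44 and 5.72 in CBFB_KO, so that the genotypes overlapped there, and its ratio change was -5.73 ± 0.80 (edgeR adjusted p = 0.00103). The helicase gene DDX3X and IMPACT, an inhibitor of GCN2, had ratio changes of -2.71 and -2.61 (edgeR adjusted p = 0.0222 and 0.0281). DHX29 and DNAJC3 were also called, but their WT free libraries held at most 0.21 CPM. The phosphatase subunit PPP1R15A, which reverses eIF2 phosphorylation, was lower in CBFB_KO free (-1.54 ± 0.57, edgeR adjusted p = 0.0467). PPP1R15B, of the same list, went the other way and was higher there (1.41 ± 0.52, edgeR adjusted p = 0.0472). Alternatives are not given for the calls of this list.

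Transcript length and base composition moved with the free change. The 13 genes that were higher in CBFB_KO free had a median length of 2286 bases and a median GC content of 44.0%, the 8 that were lower 1235 bases and 50.1%, and the 18 others 1483 bases and 47.1%. Across the 39 genes the Spearman correlation of the free change was 0.51 with length and -0.53 with GC content, and across all genes tested 0.44 (n = 16275) and -0.42 (n = 15648). These are correlations across genes, which share their libraries and are not independent replicates. Length is the mean over the 12 libraries of the length deposited for each, CBFB_KO free included, so it is not independent of these data. Mitochondrial counts were high in the same libraries. Of 3 nuclear-retained RNAs, the summed level was 1.90 to 2.03 TPM in CBFB_KO free and 1.11 to 1.36 in WT free, and up to 5.21 in WT mono and 2.25 in WT poly. TPM totals include mitochondrial counts, so CPM values are given too. MALAT1 had 14.48 to 80.61 CPM in CBFB_KO free and 4.244 to 4.638 in WT free. NEAT1 had 35.17 to 47.84 CPM in CBFB_KO free and 4.784 to 7.107 in WT free, but 12.87 to 51.85 in WT mono. KCNQ1OT1 overlapped between the free groups, at 0.1415 CPM or less. The part of length, base composition, mitochondrial counts and nuclear-retained RNA in the result was not tested.

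**Figure D5:**
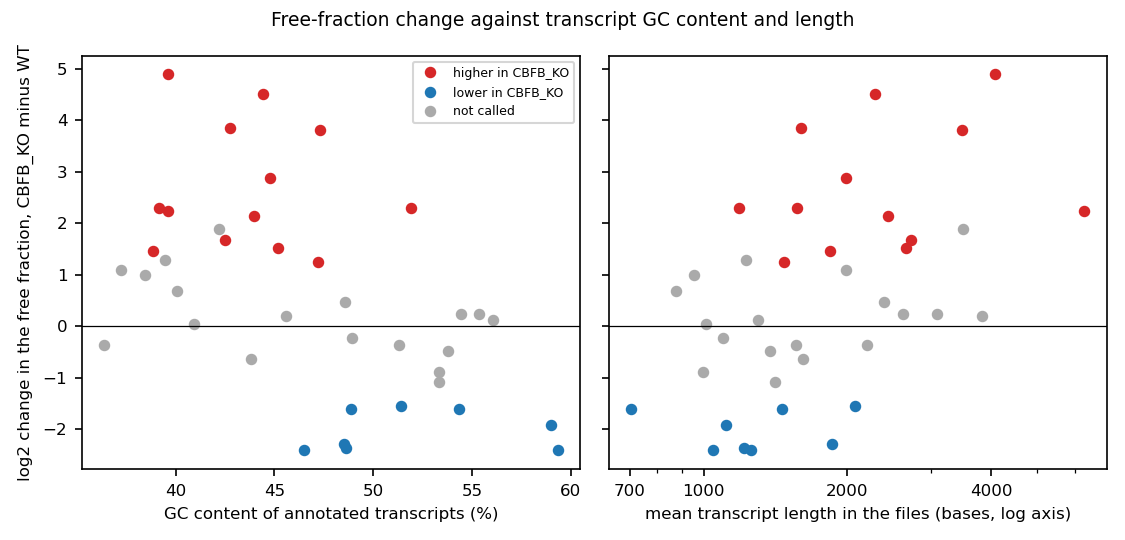
Log2 change of CBFB_KO against WT in the free fraction (vertical axis) against the GC content of annotated transcripts (left) and the mean transcript length in the files (right, log axis) for 39 genes. Red points were called higher and blue lower; the 8 blue points lie at 46.5% GC or above and at 2077 bases or below.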

How the data were processed

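The 12 libraries hold RNA of 3 gradient fractions from both genotypes. Per the labels, the authors' processing notes name Trimmomatic, STAR, RSEM and hg19, with versions not given in the sources used here. Gene types, GC content and shared sequence were taken here from GENCODE 29, matched by gene identifier. The authors deposited RSEM expected counts, TPM and FPKM values per gene and library: expected counts are unnormalised estimates, whereas the deposited TPM and FPKM are scaled for length and library total. Depth per library ran from 41050325 to 63886726 counts. The files also held 5 unnamed columns, which were not used.

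Expected counts were rounded, filtered with filterByExpr, scaled with TMM and fitted in edgeR 4.0.16 (R 4.3.3) by quasi-likelihood with 1 mean for each of the 6 groups, over all 12 libraries. All p-values are two-sided and Benjamini-Hochberg adjusted over 16275 genes, with a threshold of 0.05. SE is the standard error of the fit. Alternatives were DESeq2 1.42.0, RLE or no scaling factors, no filter, no mitochondrial genes, gene length offsets, replicate blocks, fewer libraries and each replicate left out. The length offset removed from each library its smoothed trend with the gene's mean length over the 12 libraries. On simulated counts (15507 genes, 200 changed 16-fold in the poly to free ratio) edgeR recovered 86% and 5.49% of its calls were false. Apart from the changed genes, the simulated libraries shared the same mean profile and the same dispersion. They had neither the mitochondrial share of CBFB_KO free nor the unequal spread between replicates, so these rates cannot be carried over to the data. Genes were described in full if they passed for the poly to free ratio or had the highest mean CPM of their role, and others where a count turned on them. The members and lists were chosen with earlier results of these data known. Shared sequence was measured as the share of a gene's 50-base stretches found in another gene. Start sequences came from RefSeq.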

Additional observations from a re-analysis of the deposited data

Results flagged for a closer look

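The genotype change in the poly fraction differed from that in the free fraction in 10 genes, by the edgeR test of the difference itself. In 8 the change in poly was the lower one: -5.49 for EIF3A, -5.09 for EIF5B, -3.95 for EIF2S3B, -3.81 for EIF2AK1, -3.12 for EIF2AK4, -2.35 for EIF1AD, -2.21 for EIF2AK2 and -1.97 for EIF2S1 (log2, poly minus free). In EIF3F and EIF3G it was the higher one, by 2.54 and 2.51. The changes within free alone were 4.51, 4.89, 3.86, 3.81, 2.89, 2.30, 2.24 and 2.30 for the 8 in the same order, and -2.41 and -2.42 for EIF3F and EIF3G. All rest on the 2 CBFB_KO free libraries with the high mitochondrial share.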

How the results depend on the processing

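Without CBFB_KO replicate 2, EIF2AK1 alone stayed past the threshold for the poly to free ratio. Genes lower for that ratio (8) numbered 2 without TMM factors, 3 with the CBFB_KO poly pair as 1 sample and 1 to 7 with a replicate left out. Genes higher (2) numbered 7 without TMM, 5 without the low-count filter, 5 by DESeq2, 0 with the pair as 1, 0 from only the compared libraries, 1 with the length offset and 0 to 6 with a replicate left out. In free, genes lower (8) numbered 18 without TMM, 0 from only the compared libraries and 0 to 9 with a replicate left out, and genes higher (13) numbered 4, 6 and 7 to 12. Genes higher in WT poly than free (12) numbered 6 with the pair as 1, 4 from only the compared libraries and 3 to 8 with a replicate left out. Genes lower there (1) numbered 0 without TMM, 2 by RLE, 2 without the filter, 3 by DESeq2, 2 from only the compared libraries, 3 with the length offset and 0 to 2 with a replicate left out. Calls in WT poly against mono (11) numbered 6 with the pair as 1, 18 from only the compared libraries and 0 to 8. Calls in CBFB_KO poly against mono (6) numbered 14 without TMM, 15 by DESeq2, 0 with the pair as 1, 23 from only the compared libraries, 10 with the length offset and 0 to 12. Calls in CBFB_KO poly against free (20), a count whose alternatives were chosen after seeing the data, numbered 9 with the pair as 1 and 2 to 21. FPKM ratios below 0.5 times those of WT (2) numbered 11 by TMM-normalized CPM, 4 without a minimum, 1 at a minimum of 5, 12 after division by the median and 1 to 3 with a replicate left out. Signs turned for EIF2AK2 with the length offset (0.69), for EIF2S3 without TMM (0.33), for EIF1 with RLE (-0.0096), DESeq2 (-0.0095), the length offset (-0.90) or without a replicate (-0.11 to 0.25), and for EIF5A without TMM (1.503) or a replicate (-0.37 to 0.20). The cause was not tested. The values of differences between libraries of the same number correlated at -0.16 to 0.279 across groups, so the numbers establish no pairing. With the replicate block, 9 genes were lower and 2 higher for the ratio, 8 and 2 with the block within genotype, 14 higher and 8 lower in free, and 0 FPKM ratios lay below 0.5 times in both pairs. Over all alternatives, counts stayed within 1.5 times their value 118 times and moved further 57 times. The values for single genes kept direction and side of the threshold 179 times, lost the threshold 39 times, passed it newly 11 times and changed sign 9 times. With 2 libraries a group, a lone sample left in a group is assumed to vary like the others.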
